A study of Mus musculus with 6 samples.

Results

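The genes described are 10 transcription factors, the Msx homeobox genes Msx1 and Msx2 and 8 Krüppel-like factors, Klf2, Klf3, Klf4, Klf5, Klf6, Klf9, Klf13 and Klf15, taken by symbol from a table of 44788 genes. All 10 were in the table, and all 10 were among the 16581 genes with enough reads to be tested. They were measured in scraped endometrium, the lining of the uterus, of female mice of the outbred ICR strain, by RNA sequencing of 6 libraries. Every animal had received oral tamoxifen as a newborn, at a dose of 2.7 µmol/kg from day 2 to day 5, to induce adenomyosis, endometrium growing into the muscle wall. The 3 libraries of the agonist group came from an arm of 8 mice injected intraperitoneally, 75 days later, with Decapeptyl (spelled Decapetyl in the labels), an agonist of gonadotropin-releasing hormone (GnRH), at 1.5 µg per 100 g body weight per day from day 3 to 9 of estrus. The 3 libraries without agonist came from an arm of 8 mice that received solvent. All were mated 4 weeks after that and killed in the evening of day 4 of pregnancy, counting the day of the vaginal plug as day 1. Only uteri in which histology showed adenomyosis were used, so neither group stands for a healthy uterus. The labels tie no library to a named mouse, and the p-values below therefore measure the spread between these libraries, which may in part be technical.

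Msx1 and Msx2 are closely related homeodomain factors, mostly repressors of transcription. In the mouse uterus they are made in the epithelium before the embryo attaches, Msx1 falls when attachment begins, and loss of both blocks implantation. Krüppel-like factors carry zinc fingers at their C terminus that bind GC-rich and CACCC elements, and the family holds both activators and repressors. Several act downstream of ovarian steroids in the uterus: Klf9 and its relative Klf13 work with the progesterone receptor, Klf15 holds back DNA replication in the epithelium, and Klf4 and Klf5 act in epithelial cells in largely opposite directions on growth.

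The upstream sequences of Msx1, Klf15 and Klf4 are shown because these genes had the smallest p-values of the 10 and because the Krüppel-like factors bind the elements marked in them. Each is the run of 250 bases before the RefSeq start of the gene on build GRCm38.p6, read 5′ to 3′ on the gene's strand, with capitals marking every match to the GC box GGGCGG or the CACCC box CCACCC on either strand. Msx1 lies on the minus strand with this window at chr5:37824586-37824835, Klf15 on the plus strand at chr6:90462326-90462575, and Klf4 on the minus strand at chr4:55532476-55532725.
Msx1: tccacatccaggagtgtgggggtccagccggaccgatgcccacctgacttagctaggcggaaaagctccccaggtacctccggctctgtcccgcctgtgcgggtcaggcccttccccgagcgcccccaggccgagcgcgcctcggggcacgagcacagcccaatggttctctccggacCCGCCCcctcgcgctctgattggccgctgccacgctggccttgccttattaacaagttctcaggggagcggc
Klf15: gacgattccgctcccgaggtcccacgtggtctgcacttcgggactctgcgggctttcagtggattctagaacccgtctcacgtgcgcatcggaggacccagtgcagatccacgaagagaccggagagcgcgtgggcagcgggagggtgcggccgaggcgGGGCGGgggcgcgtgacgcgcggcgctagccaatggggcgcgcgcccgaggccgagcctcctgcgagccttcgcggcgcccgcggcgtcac
Klf4: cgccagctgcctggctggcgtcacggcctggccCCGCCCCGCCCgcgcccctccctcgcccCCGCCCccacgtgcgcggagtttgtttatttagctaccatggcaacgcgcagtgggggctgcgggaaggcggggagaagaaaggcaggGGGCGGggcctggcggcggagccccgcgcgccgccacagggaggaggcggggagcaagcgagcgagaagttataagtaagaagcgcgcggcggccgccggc
The window of Klf4 held 4 GC boxes, of which a pair share a base, and those of Msx1 and Klf15 held 1 each. None of these 3 windows held a CACCC box. RefSeq promoter sequences were given for 9 of the 10 genes, all but Klf5. Over these 9, Klf3 had the most GC boxes, 6, with 3 CACCC boxes, and Klf9 had neither. Of 32851 promoter windows of the same length over all genes, 32.7% held a GC box and 28.1% a CACCC box. The Msx core TAATTG was found in none of the 9 windows and in 7.17% of all windows. These matches describe letters and are not evidence of binding.

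With a threshold of 0.05 on the Benjamini-Hochberg adjusted p of edgeR (quasi-likelihood), 0 of the 10 factors were called, and 0% of the 16581 genes. At an unadjusted p under 0.05 the agonist group lay higher for 2 of the 10, Msx1 and Klf15, where 4.17% of all genes tested did so. It lay lower for 2 of the 10, Klf4 and Klf3, where 5.09% of all genes did so. The agonist libraries lay entirely above the others for 3 of the 10 (Msx1, Klf15 and Klf5; 6.94% of all genes) and entirely below for 2 of the 10 (Klf4 and Klf3; 7.61% of all genes). DESeq2, run as an alternative test, called 2 of the 10 higher, Msx1 and Klf15, against 0.850% of all genes, and 0 of the 10 lower, against 1.53%. The median log2 fold change (agonist over no agonist, as throughout) was 0.31 over the 10 factors, 7 of them higher and 3 lower, and 0.018 over all genes, of which 8656 were higher and 7925 lower. The factors were listed with earlier results of these data known, so these counts are descriptions.

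**Figure D1:**
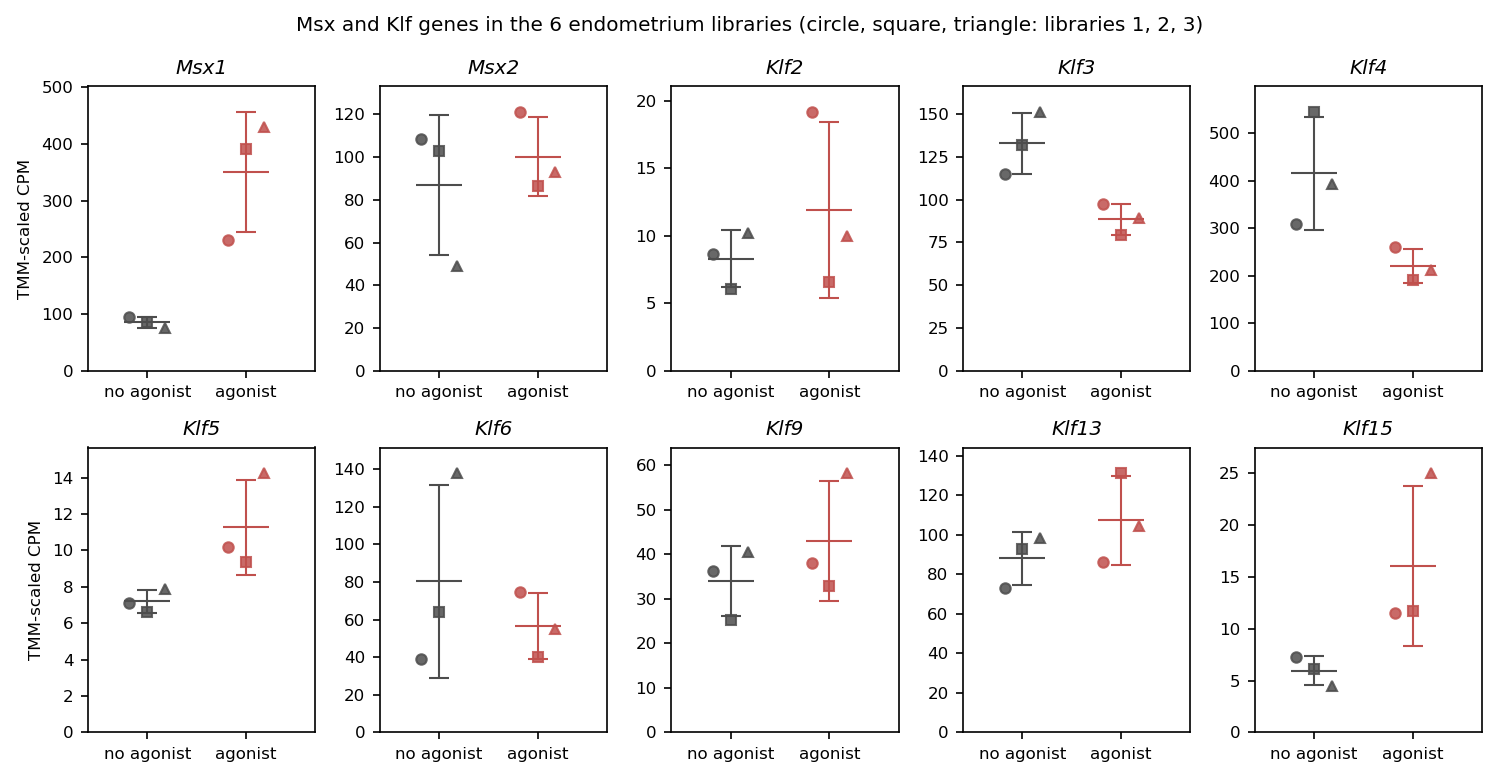
Level of each of the 10 factors in each library, in TMM-scaled CPM on linear axes that start at 0. Symbols are the 3 libraries of a group, long bars the group mean and whiskers 1 SD. For Msx1, Klf5 and Klf15 all agonist libraries lie above the others, and for Klf3 and Klf4 all lie below.

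Msx1 (chromosome 5, 37820485 to 37824583, minus strand) measured 95.9, 86.0 and 76.3 CPM in no-agonist libraries 1, 2 and 3 and 231, 392 and 430 CPM in agonist libraries 1, 2 and 3 (CPM, read counts scaled to library depth with TMM factors). The groups did not overlap, and agonist library 1 was the lowest of its group. The difference was a log2 fold change of 2.03 ± 0.28 (SE; 95% interval 1.38 to 2.68), with an edgeR adjusted p = 0.209, and its size exceeded that of 98.2% of the genes tested. DESeq2 gave an adjusted p = 3.11e-08 and limma-voom 0.184. Counts behind these levels ran from 831 to 5770 per library.

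Msx2 (chromosome 13, 53466884 to 53473074), the partner that can stand in for Msx1 in the uterus, measured 108, 103 and 49.2 CPM in the no-agonist libraries and 121, 86.3 and 93.2 CPM in the agonist libraries. The groups overlapped, with no-agonist library 3 the lowest of the 6. Its log2 fold change of 0.21 ± 0.32 (95% interval -0.53 to 0.94; edgeR adjusted p = 0.897) became -0.072 without that library. Per kilobase of annotated exons the ratio of Msx1 to Msx2 within a library, which no scaling between libraries can move, was 0.936, 0.884 and 1.64 in the no-agonist libraries and 2.02, 4.81 and 4.88 in the agonist libraries. Every agonist library thus had more Msx1 than Msx2 per length, and so did no-agonist library 3, where Msx2 was low.

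Klf15 (chromosome 6, 90462576 to 90475238), the factor that restrains epithelial replication, measured 7.32, 6.09 and 4.50 CPM in the no-agonist libraries and 11.6, 11.7 and 25.0 CPM in the agonist libraries. The groups did not overlap, and agonist library 3 was 2.16-fold above the lowest library of its group. The log2 fold change was 1.43 ± 0.41 (95% interval 0.48 to 2.37; edgeR adjusted p = 0.351, DESeq2 adjusted p = 0.0482). Without agonist library 3 it was 0.96. The gene is scarce here, with 49 to 325 counts per library.

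Klf4 (chromosome 4, 55527143 to 55532466), a factor of epithelial differentiation and growth arrest, measured 309, 545 and 393 CPM in the no-agonist libraries and 261, 190 and 212 CPM in the agonist libraries. All agonist libraries lay below all others, with the closest pair being agonist library 1 and no-agonist library 1. The log2 fold change was -0.91 ± 0.27 (95% interval -1.54 to -0.29), with an edgeR adjusted p = 0.364 and a DESeq2 adjusted p = 0.0643. Without no-agonist library 2, the highest, it was -0.66. The summed level of 18 epithelium markers was also lower in the agonist libraries, 5984 to 9304 CPM against 10906 to 16339 CPM, and its part in the level of Klf4 was not tested.

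Klf3 (chromosome 5, 64803388 to 64832901), a repressor that recruits CtBP, measured 115, 132 and 151 CPM in the no-agonist libraries and 97.2, 79.1 and 89.3 CPM in the agonist libraries. The groups did not overlap, and within each group its highest library exceeded its lowest by 1.31-fold without the agonist and 1.23-fold with it, the narrowest agonist range of the 10. The log2 fold change was -0.58 ± 0.19 (95% interval -1.03 to -0.14; edgeR adjusted p = 0.410). On the opposite strand, the noncoding Gm20033 spans 404 bases of Klf3 exon, and since the strand setting of the counting is not given in the sources used here, reads there are uncertain.

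Klf5 (chromosome 14, 99298691 to 99315036), which promotes growth in epithelia and is needed in the uterine epithelium for implantation, measured 7.09, 6.61 and 7.90 CPM in the no-agonist libraries and 10.2, 9.37 and 14.2 CPM in the agonist libraries. The groups did not overlap, but the log2 fold change of 0.64 ± 0.30 had a 95% interval from -0.055 to 1.34 (edgeR adjusted p = 0.569). It rested on 76 to 185 counts per library. Klf5 and Klf4 lay on opposite sides. Per kilobase of exon the ratio of Klf4 to Klf5 was 74.4, 141 and 84.8 in the no-agonist libraries and 43.6, 34.6 and 25.3 in the agonist libraries, which restates the values of both genes.

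**Figure D2:**
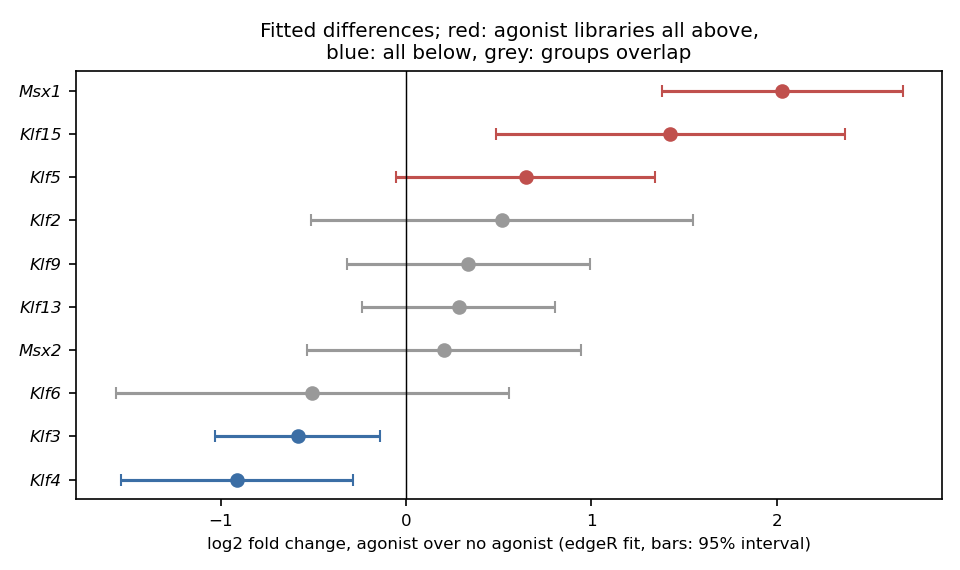
Fitted log2 fold change, agonist over no agonist, of the 10 factors with 95% intervals from the edgeR fit, ordered by size. Intervals of Msx1, Klf15, Klf3 and Klf4 leave out 0, and that of Klf5 reaches -0.055. None passed the adjusted threshold.

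For both factors tied to the progesterone receptor the groups overlapped. Klf9 (chromosome 19, 23141226 to 23168134) measured 36.3, 25.3 and 40.5 CPM in the no-agonist libraries and 38.0, 32.8 and 58.2 CPM in the agonist libraries. The log2 fold change of 0.34 ± 0.28 (95% interval -0.32 to 0.99; edgeR adjusted p = 0.778) was 0.059 without agonist library 3, the highest. Klf13 (chromosome 7, 63886351 to 63938915) measured 73.1, 92.8 and 98.5 CPM in the no-agonist libraries and 86.3, 131 and 104 CPM in the agonist libraries. The log2 fold change was 0.28 ± 0.22 (95% interval -0.24 to 0.80; edgeR adjusted p = 0.757). The progesterone receptor Pgr itself measured 88.7, 110 and 152 CPM against 67.2, 94.9 and 157 CPM, again with overlap. Of 16 listed steroid receptors and cofactors, Pgr among them, all were tested, 13 lay higher and 3 lower, and 0 passed the adjusted threshold or an unadjusted p under 0.05 (median log2 fold change 0.17).

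Klf2 and Klf6 varied more within groups than between them. Klf2 (chromosome 8, 72319033 to 72321656), a factor of quiescent endothelium, measured 8.68, 6.09 and 10.2 CPM in the no-agonist libraries and 19.2, 6.59 and 10.0 CPM in the agonist libraries. Agonist library 1 stood alone, and without it the log2 fold change of 0.52 ± 0.44 (edgeR adjusted p = 0.782) came to 0.0035. Klf6 (chromosome 13, 5861482 to 5870394), which is induced by injury and growth factors, measured 38.9, 64.1 and 138 CPM in the no-agonist libraries and 74.9, 40.0 and 54.9 CPM in the agonist libraries. No-agonist library 3 was 3.54-fold above no-agonist library 1, and without no-agonist library 3 the log2 fold change of -0.50 ± 0.46 (edgeR adjusted p = 0.798) was 0.14.

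The same libraries, no-agonist 3 and agonist 1, stood out for immediate early genes, which cells switch on within minutes of a stimulus. The summed level of the 16 listed genes was 618, 889 and 4040 CPM in the no-agonist libraries and 2970.4, 682 and 879 CPM in the agonist libraries. Egr1 alone measured 7.02, 8.18 and 489.9 CPM and then 469, 11.8 and 58.3 CPM. These libraries also had the most smooth muscle signal, with a sum over 10 markers of 19803 CPM in no-agonist library 3 and 12136 CPM in agonist library 1, against 3039.7 to 8262 CPM in the other libraries. Klf6 was highest and second highest in this pair of libraries. Klf2 was highest in agonist library 1, but no-agonist library 3 at 10.2 CPM was level with agonist library 3 at 10.0 CPM. Klf2 was lowest in no-agonist library 2 and agonist library 2, as were 8 mesothelium and fat markers. Their sum was 309, 3.48 and 102 CPM without the agonist and 400, 1.77 and 289 CPM with it. With no-agonist library 3 and agonist library 1 left out, the log2 fold changes were 2.18 for Msx1, 1.46 for Klf15 and -1.08 for Klf4. They were -0.55 for Klf3, 0.17 for Klf2 and -0.11 for Klf6, in a setting chosen after the values were seen. The part of the immediate early, muscle, and mesothelium and fat signal in the levels of Klf2 and Klf6 was not tested.

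**Figure D3:**
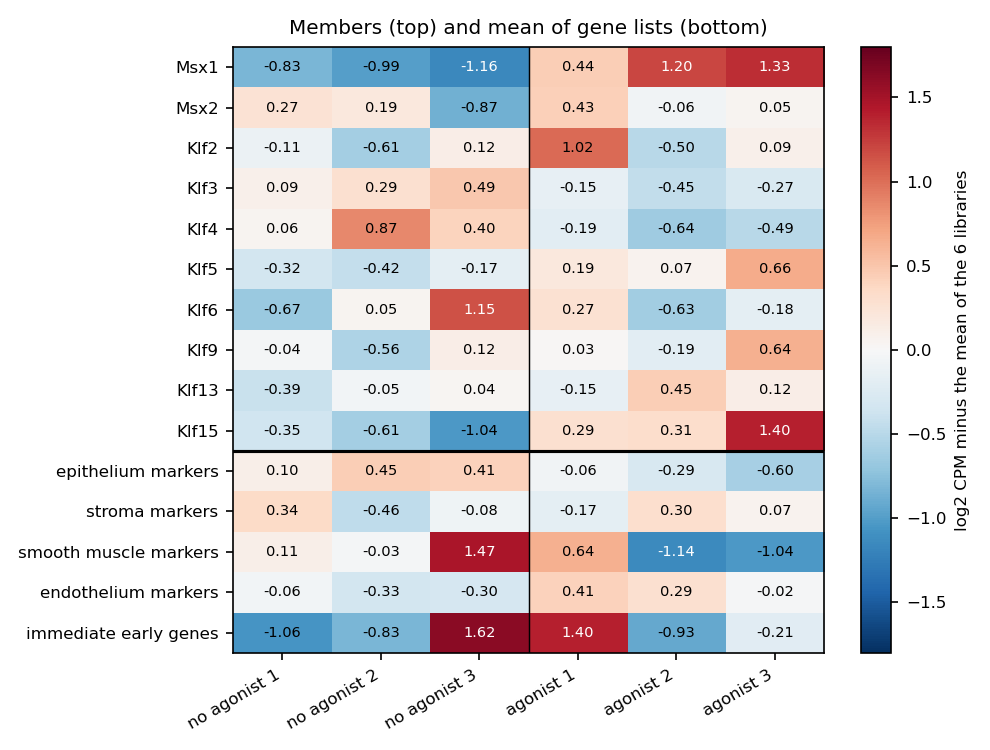
Log2 CPM minus the mean of the 6 libraries for the 10 factors (top) and the mean of 5 gene lists (bottom), with each value printed in its cell. The immediate early genes reach 1.62 in no-agonist library 3 and 1.40 in agonist library 1, and Klf6 reaches 1.15 in the former.

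Epithelial markers lay mostly lower in the agonist libraries. All 18 listed genes were tested, 2 lay higher and 16 lower (median log2 fold change -0.76), with 0 past the adjusted threshold. At an unadjusted p under 0.05, 8 of the 18 lay lower, where 5.09% of all genes did so. Their summed level was 10906, 16339 and 14612 CPM in the no-agonist libraries and 9304, 7633 and 5984 CPM in the agonist libraries. In bulk tissue fewer epithelial cells and less RNA per epithelial cell cannot be told apart. The keratin gene Krt7 measured 1543, 2798 and 1816 CPM against 836, 491 and 366 CPM, without overlap. Smooth muscle markers lay lower with the agonist in all 10 cases (median log2 fold change -0.83), with 0 at an unadjusted p under 0.05 and overlap for each. Of 9 tested macrophage and dendritic cell markers 7 lay lower and 2 higher, with a median log2 fold change of -0.19. Itgam, Cd68 and Cd14 lay lower without overlap between groups, as did 7.61% of all genes, with log2 fold changes of -2.90, -1.63 and -1.42. All other tested markers of this list overlapped. Summed stroma markers spanned 4536 to 7253 CPM in the no-agonist libraries and 4568 to 5920 CPM in the agonist libraries. Endothelium markers lay higher with the agonist in all 12 cases, 3 of them at an unadjusted p under 0.05, where 4.17% of all genes did so. Their sum was 540, 414 and 440 CPM against 736, 737 and 513 CPM. The part of these marker lists in the levels of the 10 factors was not tested.

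Set against the epithelial sum, in CPM per 1000 CPM of the 18 markers, Klf4 measured 28.4, 33.3 and 26.9 in the no-agonist libraries and 28.0, 24.9 and 35.3 in the agonist libraries. Klf3 measured 10.6, 8.08 and 10.3 against 10.5, 10.4 and 14.9 on this scale. Both genes overlapped between groups here and not on the CPM scale. Msx2, Klf2, Klf9 and Klf13, which overlapped in CPM, lay higher in every agonist library on this scale. The sum was lower in every agonist library than in every no-agonist library, so dividing by it raises all genes in the agonist group alike. A loss of separation for genes that lay lower, such as Klf3 and Klf4, can come from the division alone. So can a gain of separation, as for Msx2, Klf2, Klf9 and Klf13. The share of all genes that separate on this scale was not computed. The scale also says nothing of genes that already lay higher, such as Msx1 and Klf15. The markers also differed among themselves: the ratio of the agonist to the no-agonist mean was 0.275 for Krt7 and 0.451 for Krt19, but 0.818 for Epcam, 0.906 for Krt18 and 1.20 for Grhl2, against 0.531 for Klf4. Krt8, Elf3, Cldn7 and Cldn4 lay near Klf4, at 0.544, 0.539, 0.536 and 0.521. Whether Klf4 lay lower relative to a marker thus depended on the marker taken, and its relation to the list was not tested. This scale was chosen after the values were seen.

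Per kilobase of annotated exons (CPM divided by the union exon length), the order of the 10 factors differed at its top. Without the agonist Klf4 led at 136 ± 39.1 CPM per kb, above Msx1 at 27.8 ± 3.15 without overlap of libraries (mean ± SD, n = 3). Msx1 and Msx2 (26.5 ± 9.97) overlapped, as did each pair of neighbours from there through Klf6 (18.3 ± 11.7), Klf3 (11.8 ± 1.60) and Klf13 (11.7 ± 1.77). Klf9 (7.07 ± 1.63) lay below Klf13 and overlapped Klf2 (4.51 ± 1.12), and Klf15 (2.14 ± 0.507) and Klf5 (1.38 ± 0.125) came last, each apart from the gene above. With the agonist Msx1 stood first at 113 ± 34.0 CPM per kb and overlapped Klf4 at 72.4 ± 11.8. Msx2 (30.6 ± 5.61) came next and was apart from both neighbours. Klf13 (14.2 ± 2.99), Klf6 (12.9 ± 3.98), Klf9 (8.93 ± 2.78), Klf3 (7.88 ± 0.811), Klf2 (6.45 ± 3.52) and Klf15 (5.76 ± 2.77) followed with each overlapping the next, and Klf5 (2.17 ± 0.501) was lowest and apart.

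**Figure D4:**
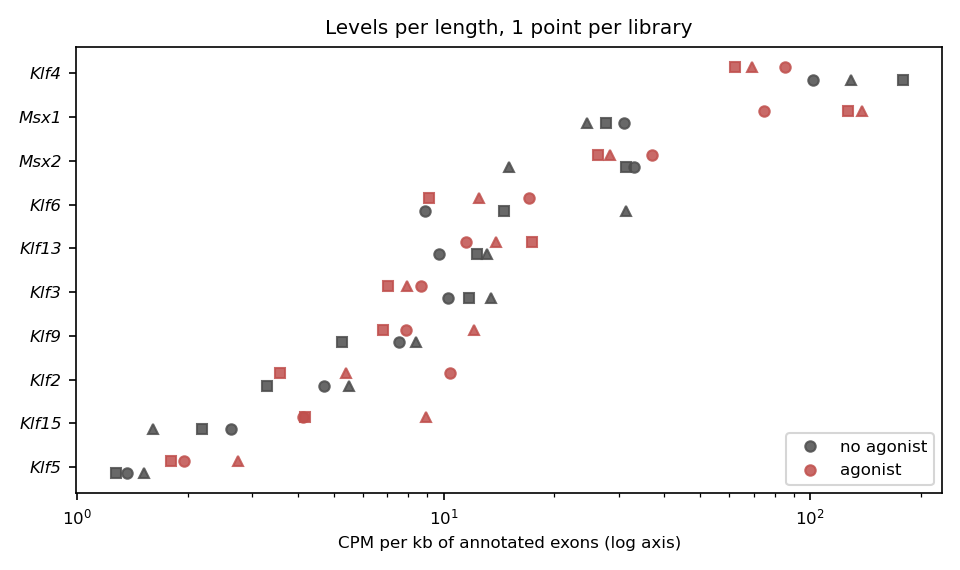
CPM per kilobase of annotated exon of the 10 factors in each library, on a log axis, ordered by the mean of all 6 libraries. Klf4 has the highest mean without the agonist, 136 CPM per kb, and Msx1 with it, 113 CPM per kb, and Klf5 has the lowest mean in both groups.

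Among 12874 tested genes with a mean of at least 5 CPM, those whose profile over the 6 libraries was nearest to that of Msx1 were Rassf10, B4galnt4, Entpd3, Hap1 and Slc27a3, with root mean square differences of centred log2 CPM of 0.19, 0.26, 0.26, 0.30 and 0.31. Nearest to Klf4 were Osbpl7, the epithelial splicing regulator Esrp2 and the adhesion receptor Cd97 (0.11, 0.14 and 0.14), and nearest to Klf3 was the annexin Anxa1 (0.052). Nearest to Klf15 were Ankrd6, the transcription factor Atoh8 and the glutathione transferase Gstm1 (0.18, 0.19 and 0.19). Among the 10 factors themselves the closest pairs were Klf5 with Klf9 (0.21) and Klf3 with Klf4 (0.27), and the most distant was Msx1 with Klf4 (1.52).

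Of 9 other Klf genes 6 were tested, 3 lay higher and 3 lower, and 0 passed the adjusted threshold (median log2 fold change 0.13). Klf12, a repressor, measured 2.87, 2.44 and 1.75 CPM in the no-agonist libraries and 6.42, 6.11 and 26.7 CPM in the agonist libraries. Its groups did not overlap, and agonist library 3 stood far above the rest, as it did for Klf15 (log2 fold change 2.47 ± 0.65; edgeR adjusted p = 0.329, DESeq2 adjusted p = 0.00988). The TGF-beta-inducible Klf10 measured 48.0 to 65.8 CPM without the agonist and 34.9 to 59.4 CPM with it. Klf1, Klf14 and Klf17 had 9, 1 and 10 reads in all and were not tested.

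Genes that act with Msx1 were followed in a list of BMP and Wnt pathway genes, of which 25 of 26 were tested. Of these 15 lay higher and 10 lower, with 0 past the adjusted threshold (median log2 fold change 0.23). On the higher side 4 had an unadjusted p under 0.05, where 4.17% of all genes did so. On the lower side 0 did, where 5.09% of all genes did so. The BMP effector Smad5 measured 128, 120 and 99.7 CPM against 138, 180 and 207 CPM, without overlap. Id2, an inhibitor of basic helix-loop-helix factors that BMP signals induce, measured 81.1, 47.5 and 61.7 CPM against 77.1, 189 and 176 CPM, with agonist library 1 inside the range of the other group. Wnt11 measured 0.906, 0.087 and 0.184 CPM against 1.60, 2.11 and 4.15 CPM, from 120 reads in all. Of 20 other homeobox genes, relatives of Msx or known from the uterus, 13 were tested, 9 lay higher and 4 lower, with 0 at an unadjusted p under 0.05 in either direction. Of 8 genes of signalling by LIF, the cytokine that opens the uterus to implantation, 3 lay higher and 5 lower, and the receptor gene Lifr measured 14.1, 21.5 and 19.1 CPM against 40.3, 31.2 and 69.2 CPM (edgeR adjusted p = 0.310, DESeq2 adjusted p = 0.0210).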

How the data were processed

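Endometrial RNA was read as single ends by an Ion Proton sequencer, per the labels' protocols. The authors deposited raw read counts per gene symbol, made with HTSeq 0.6.1 on mm10 (GRCm38), per the submitters' processing notes; of the aligner, annotation and strand setting nothing was found, each being not given in the sources used here. Totals were 11720958 to 14104266 counts per library, and 3 counts correspond to 0.213 to 0.256 CPM. The share of 18S ribosomal RNA was 3.31% in no-agonist library 2, 1.94% in agonist library 1 and 0.254 to 0.369% in the others. Oviduct and ovary markers summed to 196 CPM in agonist library 1, of which Ovgp1 alone gave 173 CPM, and to 7.77 to 24.8 CPM elsewhere. Of 8 embryo and trophoblast markers, Cdx2, Pou5f1, Nanog and Prl3d1 had 0 reads. Tfap2c, Elf5, Eomes and Prl2c2 had 297, 106, 84 and 8 reads in all. The list summed to 4.30, 5.22 and 5.69 CPM in the no-agonist libraries and 4.73, 8.29 and 10.4 CPM in the agonist libraries.

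Groups came from the labels. Genes passing filterByExpr (defaults) were fitted across the whole table with edgeR 4.0.16 (TMM factors, quasi-likelihood F-test, no covariates; R 4.3.3) and Benjamini-Hochberg adjusted over 16581 genes; alternatives used DESeq2 1.42.0 on the same genes, limma 3.58.1, other scalings and filters, and fewer libraries. The code was tested on simulated data. Coordinates and exon lengths are from GENCODE M21. Named genes were chosen by rule: the 10 factors, up to 3 genes of each list with the smallest p, and the genes nearest in profile, fewer being printed. Pgr, Egr1, Klf10, Epcam, Krt8, Krt18, Grhl2, Elf3, Cldn4, Cldn7, Cdkn1b, Cdkn1c, Pou5f1 and Nanog and the genes with few reads were added after their values were seen. So were Cdx2, Prl3d1, Eomes and Prl2c2. The 10 factors and all lists were chosen with earlier results of these data known. The labels give the groups no shared replicate numbers; the numbers 1 to 3 used here follow accession order within a group and only name libraries, so no pairing was fitted.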

Additional observations from a re-analysis of the deposited data

How the results depend on the processing

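The directions of Msx1, Klf3, Klf4, Klf5, Klf9, Klf13 and Klf15 held in all 17 alternatives run, with log2 fold changes of 1.86 to 2.26 for Msx1, 0.96 to 1.64 for Klf15 and -1.09 to -0.66 for Klf4. Directions changed for Msx2 (-0.072 without no-agonist library 3 and -0.23 without no-agonist library 3 and agonist library 1), Klf6 (0.14 without no-agonist library 3) and Klf2 (-0.18 without no-agonist library 2 and agonist library 1). The number of genes called, 0 with 1535 at an unadjusted p under 0.05 in edgeR's quasi-likelihood test, was 394 with DESeq2 (2 of the 10 factors, Msx1 at 2.02), 268 with edgeR's likelihood ratio test (1 factor, Msx1 at 2.03), 36 without a filter on low counts (1 factor, Msx1 at 2.02, adjusted p = 0.0290), 7 without no-agonist library 2 and agonist library 1, 1 without no-agonist library 3 and agonist library 1, and 0 with limma-voom. Leaving out 1 library gave 0 to 1 genes and 0 of the 10 factors, with Msx2 at -0.072 to 0.39, Klf6 at -0.84 to 0.14, Msx1 at 1.86 to 2.26 and its edgeR adjusted p from 0.0819 to 0.526. With library totals alone the median over all genes shifted from a log2 fold change of 0.018 to 0.183, and the 10 factors kept their directions, Klf3 at -0.41 and Klf4 at -0.74. Fits without 1 or more libraries estimate the spread from fewer samples. Klf2, Klf5 and Klf15 had the fewest reads, and the standard error of the fold change was largest for Klf6 (0.46), Klf2 (0.44) and Klf15 (0.41).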

Other observations

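The Sp genes, the closest relatives of the Krüppel-like factors, were tested in 6 of 9 cases, with 4 higher and 2 lower (median log2 fold change 0.13) and 0 past the adjusted threshold. Sp5, a target of Wnt and beta-catenin signalling, measured 0.755, 1.13 and 0.551 CPM in the no-agonist libraries and 1.85, 5.91 and 8.69 CPM in the agonist libraries, without overlap (log2 fold change 2.74 ± 0.65, edgeR adjusted p = 0.302, DESeq2 adjusted p = 0.00834). It rested on 252 reads in all.

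Of 16 tested genes of replication and the cell cycle 14 lay higher and 2 lower, where 52.2% of all genes lay higher, with 0 at an unadjusted p under 0.05 (median log2 fold change 0.59). The libraries differed widely within groups: the proliferation marker Mki67 measured 23.8, 67.1 and 15.6 CPM in the no-agonist libraries and 72.0, 131 and 41.3 CPM in the agonist libraries. The cell cycle inhibitor Cdkn1a measured 42.4, 45.5 and 100.2 CPM and then 53.1, 37.3 and 24.2 CPM. Among the 14 were the inhibitors Cdkn1b and Cdkn1c, with log2 fold changes of 0.031 and 0.73.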
